A study of Mus musculus with 62 samples.

Results

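The transcripts followed here are those of 10 genes of the ATF4 stress response and of protein folding and proteolysis inside mitochondria. They are Atf4, Atf5, Ddit3 and Asns, and the mitochondrial chaperones and proteases Hspd1, Hspe1, Hspa9, Lonp1, Clpp and Trap1. Each was found by matching its symbol to a mouse Ensembl identifier, and all 10 were among the 11121 genes counted. The measurements came from prefrontal cortex (PFC) and from a part of the ventral striatum, the nucleus accumbens (NAc), of wild-type male C57BL/6j mice aged 15 weeks. The stressed mice went through multimodal chronic restraint stress (mCRS), a daily restraint whose setting changed from day to day. The control mice (CTR) were left unstressed. For the PFC, 15 control libraries were compared with 15 from stressed mice, and for the NAc 16 with 16. All mice, stressed or not, also passed through behavioural tests that included a forced swim. Tissue was taken after the restraint sessions and these tests had ended, so the values describe the state at that time and not an acute response to restraint.

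When cells meet amino acid shortage, unfolded protein or failing mitochondria, kinases phosphorylate the translation factor eIF2, which lowers general protein synthesis and favours translation of the Atf4 message. ATF4, together with the related factors ATF5 and CHOP (encoded by Ddit3), then turns on genes for amino acid synthesis and transport. A linked programme, the mitochondrial unfolded protein response, adjusts the chaperones that fold proteins in the mitochondrial matrix and the proteases that clear them. Because ATF4 is controlled largely at translation, the amount of its mRNA is an incomplete measure of its activity, and the messages of its targets are often read beside it. The comparisons below ask whether these messages differed between stressed and unstressed mice in either region, and between the regions.

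ATF4 acts by binding short DNA elements close to the genes it controls, and asparagine synthetase carries the best known of them. It is shown because Asns is the member read here as a target of the factors. Among 11 RefSeq start-site windows of 9 of the 10 genes (250 bases before to 50 after each start site, GRCm38.p6), the letters TGATGNAA, searched on both strands, occurred in 1 window (9.09%), that of Asns. They occurred in 1304 of 32851 windows of all genes (3.97%). The stretch below lies at chr6:7693214-7693243 on the minus strand, the strand from which Asns is read, and capitals mark the match TGATGAAA.
Asns: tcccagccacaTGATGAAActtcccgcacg
The match lay between positions -23 and -16 from the start site. Positions count from the RefSeq start site, upstream as negative. The GENCODE span of Asns, chr6:7675169-7693254, starts farther upstream and takes in the match. A match of letters is a description of the window, and no match in the other windows says only that these letters were not there.

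Library totals ran from 945286 to 4857359 counts, and precision differed between libraries accordingly. Levels are given as CPM, counts scaled to a common library total and corrected for composition by the TMM method. The mean share of the listed genes with at least 1 count was 87.1% ± 4.42 (SD, n = 15) in PFC CTR and 82.3% ± 6.22 (SD, n = 15) in PFC mCRS. The labelled tissues carried their markers. The summed level of 7 markers of striatal projection neurons had a median of 2497 CPM in NAc CTR and 2240.3 CPM in NAc mCRS, against 326 and 368 CPM in the PFC groups. The 5 markers of cortical excitatory neurons summed to medians of 1008 and 915 CPM in PFC CTR and mCRS, against 93.0 and 79.4 CPM in the NAc. 2 NAc libraries stood apart. In NAc CTR replicate 7 the striatal sum was 151 CPM, against 1529 CPM in the next lowest library of its group. In NAc mCRS replicate 10 the 2 choroid plexus markers in the table summed to 21741 CPM, against 107 CPM in the next highest library of its group. NAc estimates without these libraries are given beside the results.

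**Figure D1:**
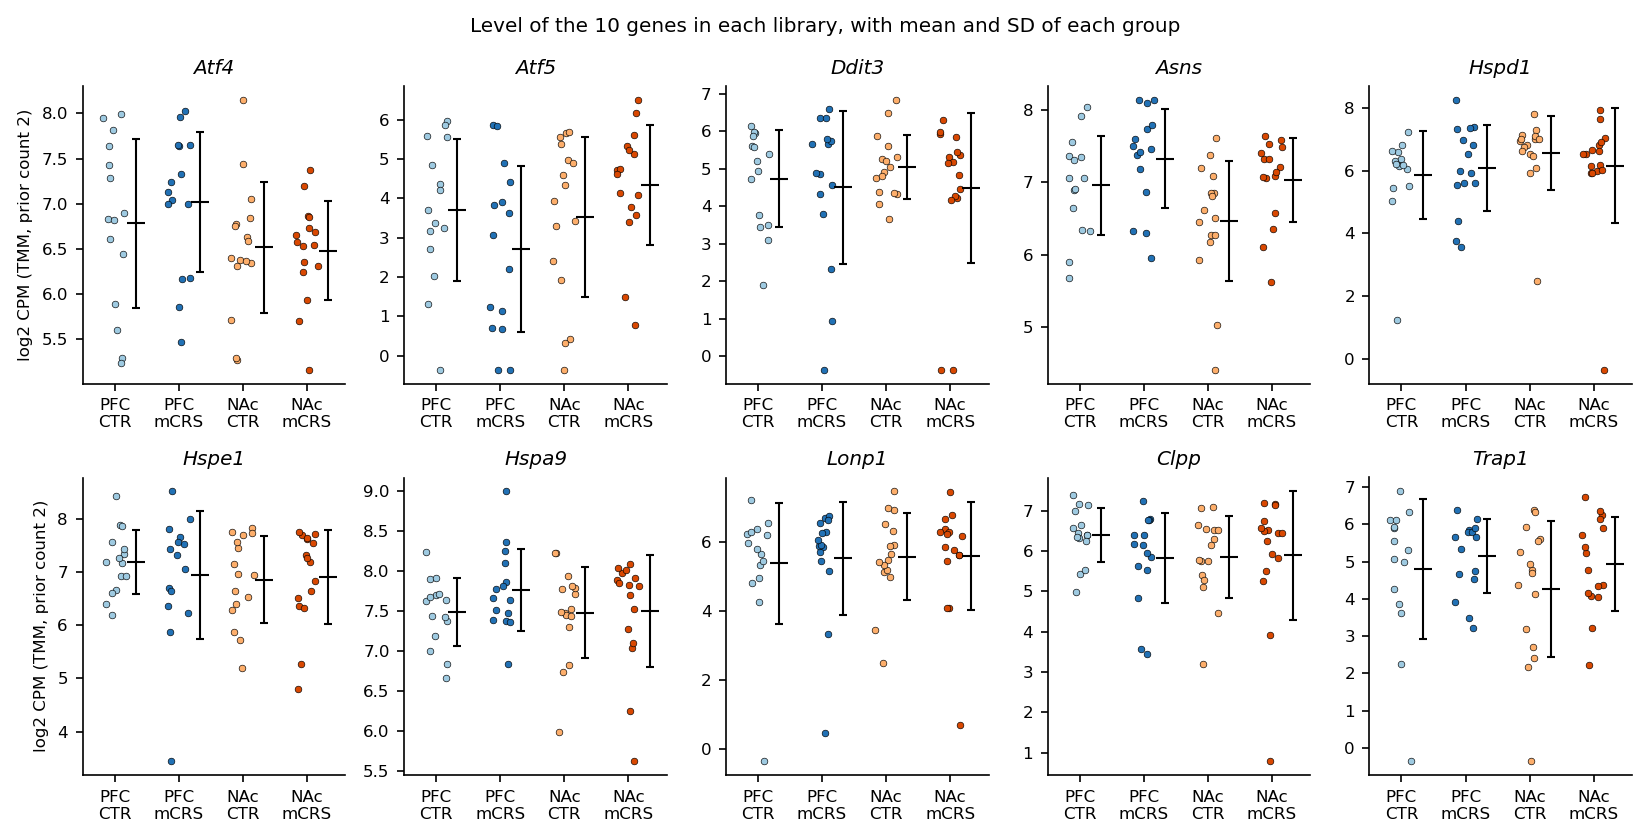
Level of each of the 10 genes in all 62 libraries, as log2 CPM (TMM scaling, prior count of 2) on the vertical axis against the 4 groups on the horizontal axis. Each dot is a library and the bars give the group mean and SD. The groups overlap for every gene, and the spread within a group is wider than the steps between group means.

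No change with mCRS passed the test for any of the 10 genes in either region, so the data show no detectable shift of Atf4, its target Asns or the mitochondrial chaperones and proteases. All 10 passed the filter on low counts in every comparison, and 0 of 10 reached a false discovery rate (FDR) below 0.05 in the PFC or in the NAc (edgeR quasi-likelihood test, Benjamini-Hochberg over all genes tested). At an unadjusted p below 0.05 the count was also 0 of 10 in each region. These counts stand against a background of 0% of all genes called at that FDR in the PFC and 0.00986% in the NAc, and 3.5% and 2.04% at the unadjusted threshold. The 1 gene past the FDR in the NAc was the choroid plexus marker Ttr, at 5.38 (SE 1.05, FDR 0.0339, edgeR) on the log2 scale, and without the 2 NAc libraries that stood apart the count over all genes was 0. DESeq2 placed 0 of 10 below an adjusted p of 0.05 in the NAc, with 1 gene, Asns, below an unadjusted p of 0.05, against 0% and 3.53% of all genes. In the PFC it had 0 of 10 below that unadjusted p, against 5.18% of all genes, and gave an adjusted p to 0 of the 10. Over all genes, counting those without an adjusted p, 0.045% were below 0.05 there. The median log2 fold change of the 10 genes was 0.13 in the PFC and 0.063 in the NAc, against -0.0076 and -0.0060 for all genes tested. The lowest FDR of the 10 genes was 0.99974 in the PFC and 0.99995 in the NAc, so the values below are given with their unadjusted p. As these were pieces of bulk tissue, fewer cells of a type and less RNA per cell cannot be told apart in any of the values.

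**Figure D2:**
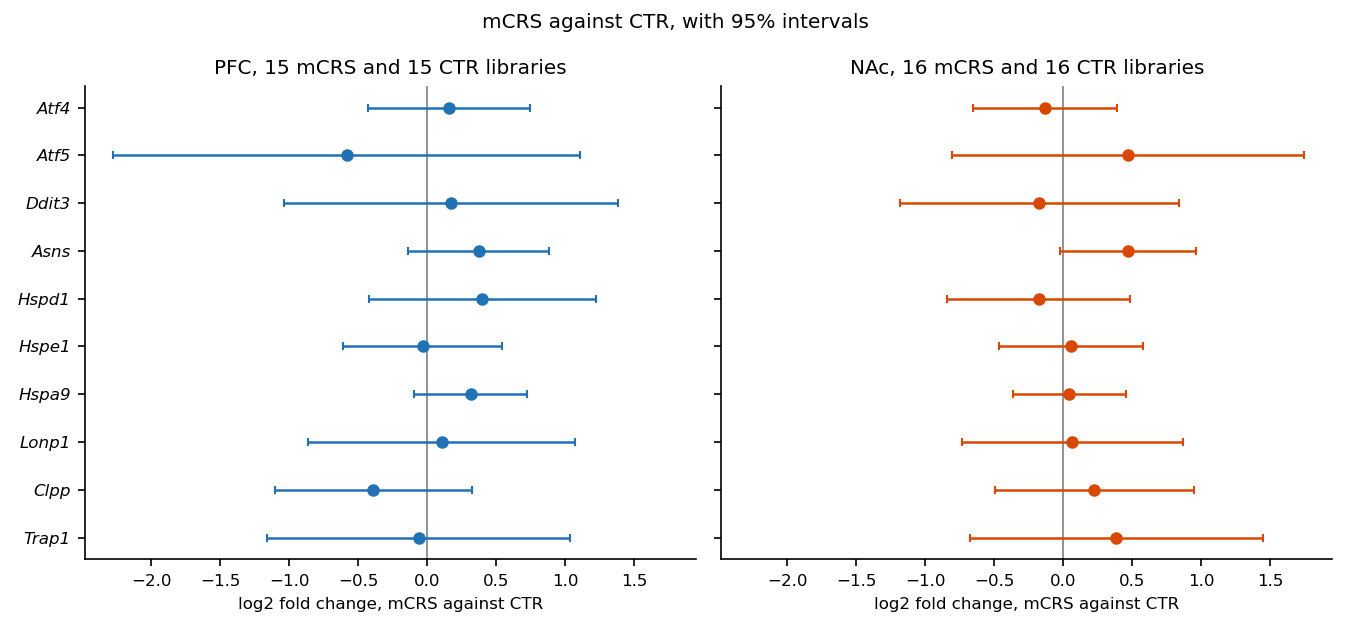
Log2 fold change of mCRS against CTR for each gene in the PFC (left) and the NAc (right), from edgeR, with 95% intervals as bars and a vertical line at no change. Every interval spans no change. The interval of Asns in the NAc, from -0.021 to 0.96, comes nearest to lying wholly on one side.

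Atf4 (ENSMUSG00000042406, chr15:80255184-80257541, plus strand) encodes the central transcription factor of the response. In the PFC it ranged from 36.9 to 254 CPM with a median of 113 in CTR, and from 43.5 to 261 CPM with a median of 139 in mCRS. The 2 groups overlapped over nearly the whole range, although 11 of 15 mCRS libraries lay above the CTR median. The log2 fold change was 0.16 (SE 0.29) and the unadjusted p was 0.590. Its direction turned, to -0.084 with a covariate for the share of detected genes and to -0.013 with one for the log2 total count. In the NAc it ranged from 37.8 to 284 CPM with a median of 89.5 in CTR, and from 35.0 to 165 CPM with a median of 93.4 in mCRS. The medians nearly coincided, and the highest library of the region, replicate 1, was a control. The estimate there was -0.13 (SE 0.26), with an unadjusted p of 0.619, and turned to 0.051 without that library. The 95% intervals reached from 0.742 to 1.68 times the control level in the PFC and from 0.635 to 1.31 times in the NAc.

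Atf5 (ENSMUSG00000038539, chr7:44812256-44816658, minus strand) encodes a relative of ATF4 that is linked to the mitochondrial unfolded protein response. PFC CTR libraries ranged from 0 to 62.2 CPM with a median of 12.3, and PFC mCRS libraries from 0 to 57.3 CPM with a median of 7.55. The stressed libraries had the lower median, but both groups held libraries at 0 and their ranges nearly coincided. This gave a log2 fold change of -0.58 (SE 0.84) with an unadjusted p of 0.493. NAc CTR libraries ranged from 0 to 50.6 CPM with a median of 17.0, and NAc mCRS libraries from 0.935 to 90.7 CPM with a median of 24.7. Here the stressed libraries had the higher median, and the 2 groups overlapped. Relative to CTR the NAc estimate was 0.47 (SE 0.64) on the log2 scale (unadjusted p = 0.463, edgeR). Atf5 was at 0 counts in 4 libraries, where a count of 0 allows up to 1.18 to 2.70 CPM, and it varied most of the 10 between libraries of a group, with a biological coefficient of variation of 126%. Its interval in the PFC, 0.206 to 2.16 times the control level, leaves room for large changes in either direction.

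Ddit3 (ENSMUSG00000025408, chr10:127290774-127296288, plus strand) encodes CHOP, which takes part in the response to prolonged stress of the endoplasmic reticulum and mitochondria. Across the PFC, its level in CTR went from 2.99 to 69.6 CPM with a median of 36.0, and in mCRS from 0 to 96.7 CPM with a median of 28.8. The mCRS group held both the highest library and 1 library at 0. mCRS against CTR came to 0.17 (SE 0.60) on the log2 scale, with an unadjusted p of 0.781. Across the NAc, its level in CTR went from 11.9 to 115 CPM with a median of 30.9, and in mCRS from 0 to 77.9 CPM with a median of 35.4. The highest library was NAc CTR replicate 8, and 2 of the mCRS libraries had no count. Here the log2 fold change came to -0.17 (SE 0.51) and the unadjusted p to 0.733. The library with choroid plexus transcripts, NAc mCRS replicate 10, was 1 of the 2 without a count, and without both libraries that stood apart the NAc fold change was -0.14 on the log2 scale.

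Asns (ENSMUSG00000029752, chr6:7675169-7693254, minus strand) encodes asparagine synthetase and is the classical target gene of ATF4. In the PFC it ranged from 50.4 to 263 CPM with a median of 133 in CTR, and from 61.3 to 283 CPM with a median of 176 in mCRS. Most of the stressed libraries, 11 of 15, lay above the CTR median, within a range that the controls shared. On the log2 scale the stressed libraries stood at 0.37 (SE 0.25) relative to CTR (unadjusted p = 0.148, edgeR). In the NAc it ranged from 20.3 to 196 CPM with a median of 93.8 in CTR, and from 48.4 to 199 CPM with a median of 145 in mCRS. Of the stressed libraries 13 of 16 lay above the CTR median, and the lowest library of the region was the shallowest control, replicate 2. The NAc log2 fold change was 0.47 (SE 0.25) with an unadjusted p of 0.0605. Asns thus had the smallest unadjusted p of the 10 genes in the NAc, and its estimates in both regions were above 0, at 1.30 and 1.39 times the control level with intervals of 0.909 to 1.85 and 0.985 to 1.95. Neither passed the FDR. Without the 2 NAc libraries that stood apart the NAc estimate was 0.45 (SE 0.26) and the unadjusted p was 0.0812.

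Hspd1 (ENSMUSG00000025980, chr1:55077835-55088243, minus strand) encodes HSP60, whose rings form the folding chamber of the mitochondrial matrix. PFC CTR libraries ranged from 1.57 to 152 CPM with a median of 72.9, and PFC mCRS libraries from 11.2 to 310.3 CPM with a median of 63.5. The mCRS median was the lower although the mean was the higher (means of 96.4 and 73.2 CPM), and the highest library, mCRS replicate 14, held 22.0% of the counts of its group. The log2 fold change was 0.40 (SE 0.41) and the unadjusted p was 0.336, and without that library the estimate was 0.15 with an unadjusted p of 0.722. NAc CTR libraries ranged from 4.84 to 226 CPM with a median of 117, and NAc mCRS libraries from 0 to 246 CPM with a median of 91.8. Only 4 of 16 mCRS libraries lay above the CTR median, yet the group held both the highest library and 1 at 0. The estimate there was -0.18 (SE 0.33), with an unadjusted p of 0.591.

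Hspe1 (ENSMUSG00000073676, chr1:55088132-55091307, plus strand) encodes HSP10, the lid that closes the HSP60 chamber, and lies head to head with Hspd1 on the opposite strand, their annotated spans overlapping at the 5′ ends. Across the PFC, its level in CTR went from 72.9 to 347 CPM with a median of 146, and in mCRS from 10.04 to 369 CPM with a median of 160.3. The medians were close, and the lowest library was mCRS replicate 5. This gave a log2 fold change of -0.034 (SE 0.29) with an unadjusted p of 0.908. Across the NAc, its level in CTR went from 35.9 to 228 CPM with a median of 123, and in mCRS from 27.1 to 215 CPM with a median of 149. The highest control was replicate 7, the library with few striatal transcripts, and the groups overlapped throughout. Relative to CTR the NAc estimate was 0.058 (SE 0.26) on the log2 scale (unadjusted p = 0.824, edgeR), and without the 2 libraries that stood apart it was 0.12 (SE 0.27). Of the 531 windows of 70 bases in the last 600 bases of its longest coding transcript, 178 (33.5%) also occur in another annotated gene, as do 66 (12.4%) of those of Hspd1. Whether reads from these stretches map to more than 1 place in the genome was not tested. The counts of this pair may be less certain than those of the other 8 genes, which had no such window.

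The 2 proteins work as 1 machine, so it was asked whether their messages varied together between libraries. No correlation passed the permutation test. Pearson's r of log2 CPM was 0.33 among PFC controls, 0.15 among stressed PFC libraries, -0.028 among NAc controls and 0.063 among stressed NAc libraries, with two-sided permutation p of 0.233, 0.607, 0.930 and 0.840. Adjusted over the 4 groups, every p was 0.930. Spearman's rho was 0.22, 0.29, 0.053 and -0.16 in the same order, with permutation p of 0.435, 0.297, 0.848 and 0.557 and adjusted p from 0.743 to 0.848. Leaving out the 2 libraries farthest from the Hspd1 median of each group gave r of -0.011, 0.23, 0.028 and -0.41, so the value in PFC CTR rested on those libraries.

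**Figure D3:**
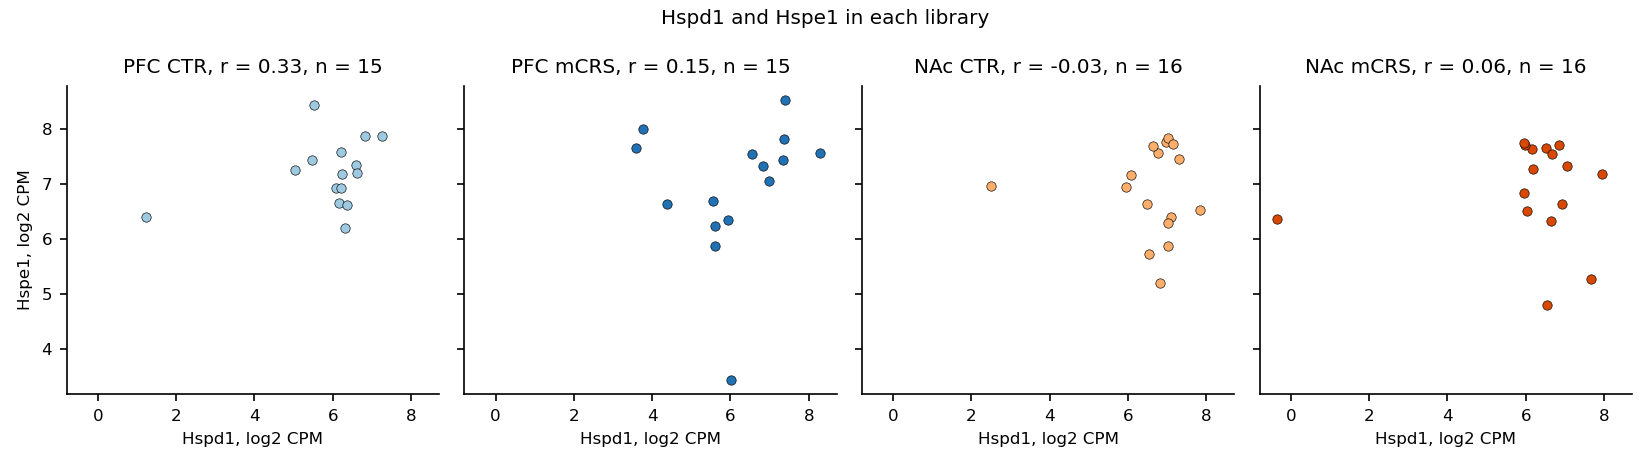
Hspe1 against Hspd1, both as log2 CPM, in the libraries of each of the 4 groups, with Pearson's r above each panel. Each dot is a library. The dots are scattered in every panel, and the highest r, 0.33 in PFC CTR, falls to -0.011 without the 2 libraries farthest from the Hspd1 median.

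Hspa9 (ENSMUSG00000024359, chr18:34937414-34954357, minus strand) encodes mortalin, the matrix HSP70 that pulls imported proteins through the inner membrane. In the PFC it ranged from 99.9 to 301 CPM with a median of 197 in CTR, and from 114 to 511 CPM with a median of 201 in mCRS. The highest library, at 511 CPM, was PFC mCRS replicate 1, and 9 of 15 stressed libraries were above the CTR median. mCRS against CTR came to 0.31 (SE 0.21) on the log2 scale, with an unadjusted p of 0.134. Without that library the estimate was 0.18 and the unadjusted p was 0.382. In the NAc it ranged from 62.5 to 299 CPM with a median of 180.4 in CTR, and from 48.2 to 271 CPM with a median of 225 in mCRS. The ranges nearly coincided. Here the log2 fold change came to 0.045 (SE 0.20) and the unadjusted p to 0.827. Hspa9 was the steadiest of the 10 genes, with a biological coefficient of variation of 41.9%, and its intervals were the narrowest, 0.933 to 1.65 times the control level in the PFC and 0.777 to 1.37 times in the NAc. The lowest NAc control was replicate 7, at 62.5 CPM, and without the 2 libraries that stood apart the NAc estimate turned to -0.045 (SE 0.20).

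Lonp1 (ENSMUSG00000041168, chr17:56614297-56626887, minus strand) encodes the LON protease, which degrades damaged and misfolded proteins of the matrix. PFC CTR libraries ranged from 0 to 146 CPM with a median of 54.8, and PFC mCRS libraries from 0.588 to 105 CPM with a median of 58.4. The 2 groups had close medians, and each held a library at or near 0. On the log2 scale the stressed libraries stood at 0.10 (SE 0.48) relative to CTR (unadjusted p = 0.829, edgeR). NAc CTR libraries ranged from 4.84 to 176 CPM with a median of 46.0, and NAc mCRS libraries from 0.839 to 172 CPM with a median of 63.2. A single mCRS library, replicate 14, held 25.7% of the counts of its group. The NAc log2 fold change was 0.067 (SE 0.40) with an unadjusted p of 0.868, and 0.014 (SE 0.40) without the 2 libraries that stood apart.

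Clpp (ENSMUSG00000002660, chr17:56990305-56996188, plus strand) encodes the proteolytic core of the other matrix protease, ClpXP. Across the PFC, its level in CTR went from 31.1 to 167 CPM with a median of 84.2, and in mCRS from 10.1 to 149 CPM with a median of 70.8. Only 4 of 15 stressed libraries lay above the CTR median, but the ranges overlapped. The log2 fold change was -0.39 (SE 0.36) and the unadjusted p was 0.276. Across the NAc, its level in CTR went from 8.36 to 135 CPM with a median of 62.1, and in mCRS from 0.945 to 145 CPM with a median of 86.8. In this region the mCRS median was the higher, with 1 mCRS library, replicate 6, close to 0. The estimate there was 0.22 (SE 0.36), with an unadjusted p of 0.536. The estimates thus pointed in opposite directions, and the test of the difference between the regions is given below.

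Trap1 (ENSMUSG00000005981, chr16:4039971-4077827, minus strand) encodes the mitochondrial member of the HSP90 family. In the PFC it ranged from 0 to 118 CPM with a median of 38.6 in CTR, and from 8.53 to 82.4 CPM with a median of 49.4 in mCRS. The mCRS median was the higher and the mean the lower. This gave a log2 fold change of -0.063 (SE 0.55) with an unadjusted p of 0.909. Its direction turned with a covariate, to 0.043 with the share of genes detected and to 0.16 with the log2 total count. In the NAc it ranged from 0 to 83.1 CPM with a median of 25.7 in CTR, and from 3.87 to 105 CPM with a median of 31.6 in mCRS. Both groups reached close to 0 at their low end. Relative to CTR the NAc estimate was 0.38 (SE 0.53) on the log2 scale (unadjusted p = 0.472, edgeR).

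How large a change could have gone unseen differed between the genes. The 95% interval lay wholly within a 2-fold change in either direction for 4 of the 10 genes in the PFC and 7 of 10 in the NAc. For Atf5, Ddit3, Hspd1, Lonp1, Clpp and Trap1 in the PFC, and for Atf5, Ddit3 and Trap1 in the NAc, a change of that size lay within the interval. Leaving out 1 library turned the estimate or moved it by more than 1.5 times for 8 of the 10 genes in the PFC (not Asns and Clpp) and for 9 of 10 in the NAc (not Asns). Without the 2 NAc libraries that stood apart, the NAc estimates of the genes not yet given were -0.10 for Atf4, 0.46 for Atf5, -0.13 for Hspd1, 0.18 for Clpp and 0.38 for Trap1 on the log2 scale, and 0 of 10 genes had an unadjusted p below 0.05. The biological coefficient of variation ran from 41.9% (Hspa9) to 126% (Atf5), against a median of 108% for all genes. Counts of 0 occurred for Atf5 in 4 of 62 libraries, for Ddit3 in 3, for Trap1 in 2, and for Hspd1 and Lonp1 in 1 each. The other 5 genes had a count in every library.

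No difference in the stress effect between the regions passed the test for any of the 10 genes. In the test of the difference itself, PFC effect minus NAc effect over all 62 libraries, 0 of 10 genes passed the FDR and 0 of 10 an unadjusted p below 0.05 (edgeR), against 0.00907% and 3.09% of all genes. DESeq2 also gave 0 and 0, against 0.00899% and 4.16% of all genes. Clpp had the smallest unadjusted p, 0.221, with a difference of -0.62 (SE 0.51) on the log2 scale. Atf5 had the largest difference, -1.06 (SE 1.04), with an unadjusted p of 0.308. Hspd1 differed by 0.58 (SE 0.54), with p = 0.289 before adjustment, and by 0.30 without PFC mCRS replicate 14. For Asns, whose estimate was above 0 in both regions, the difference was -0.11 (SE 0.35). Without the 2 NAc libraries that stood apart the counts remained at 0 and 0, and the smallest unadjusted p was 0.230, that of Hspa9.

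No difference in level between the regions passed the FDR either. In unstressed mice 0 of 10 genes differed between NAc and PFC at an FDR below 0.05 and 0 of 10 at an unadjusted p below 0.05 (edgeR), whereas 6.32% and 15% of all genes did. In stressed mice, which are a separate set of libraries, 0 of 10 passed the FDR and 1 of 10, Atf4, the unadjusted threshold, against 6.31% and 14.8% of all genes. With DESeq2 the counts below an adjusted p of 0.05 were 0 and 0, against 8.09% of all genes in CTR and 8.12% in mCRS. There 1 gene in each set of mice, Hspd1 in CTR and Atf4 in mCRS, was below an unadjusted p of 0.05, against 17.5% and 17.8% of all genes.

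Atf4 was estimated lower in the NAc than in the PFC in both sets of mice, at -0.34 (SE 0.29) on the log2 scale in CTR with p = 0.237 before adjustment, and at -0.63 (SE 0.27) in mCRS with p = 0.0225 before adjustment and an FDR of 0.206 (edgeR). The unadjusted p in mCRS was 0.0744 with a covariate for the share of detected genes, 0.0730 with the replicate block, 0.0549 without PFC mCRS replicate 1 and 0.0537 without PFC mCRS replicate 3. It was 0.0349 with a covariate for the log2 total count, and stayed below 0.05 without any 1 of the other libraries (edgeR). In CTR the estimate was -0.53 without NAc CTR replicate 1. Only 4 of 16 control and 2 of 16 stressed NAc libraries lay above the median of the PFC libraries of the same treatment, and the ranges overlapped. Asns, its target, had estimates of -0.45 (SE 0.27) in CTR and -0.35 (SE 0.24) in mCRS, with 4 of 16 and 4 of 16 NAc libraries above the PFC median. Hspd1 was estimated higher in the NAc in CTR, at 0.62 (SE 0.34) with p = 0.0705 before adjustment and an FDR of 0.400 (edgeR), but at 0.049 (SE 0.41) in mCRS. Its partner Hspe1 had estimates of -0.28 (SE 0.25) and -0.17 (SE 0.30), and Hspa9 of 0.026 (SE 0.20) and -0.24 (SE 0.22). The proteases Lonp1 and Clpp and the chaperone Trap1 had unadjusted p from 0.175 to 0.934 in the 2 sets of mice. Of the other 2 factors, Atf5 had estimates of -0.077 (SE 0.72) in CTR and 0.99 (SE 0.78) in mCRS. For it, 9 of 16 and 14 of 16 NAc libraries lay above the PFC median. Ddit3 had estimates of 0.16 (SE 0.48) in CTR and -0.17 (SE 0.63) in mCRS.

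**Figure D4:**
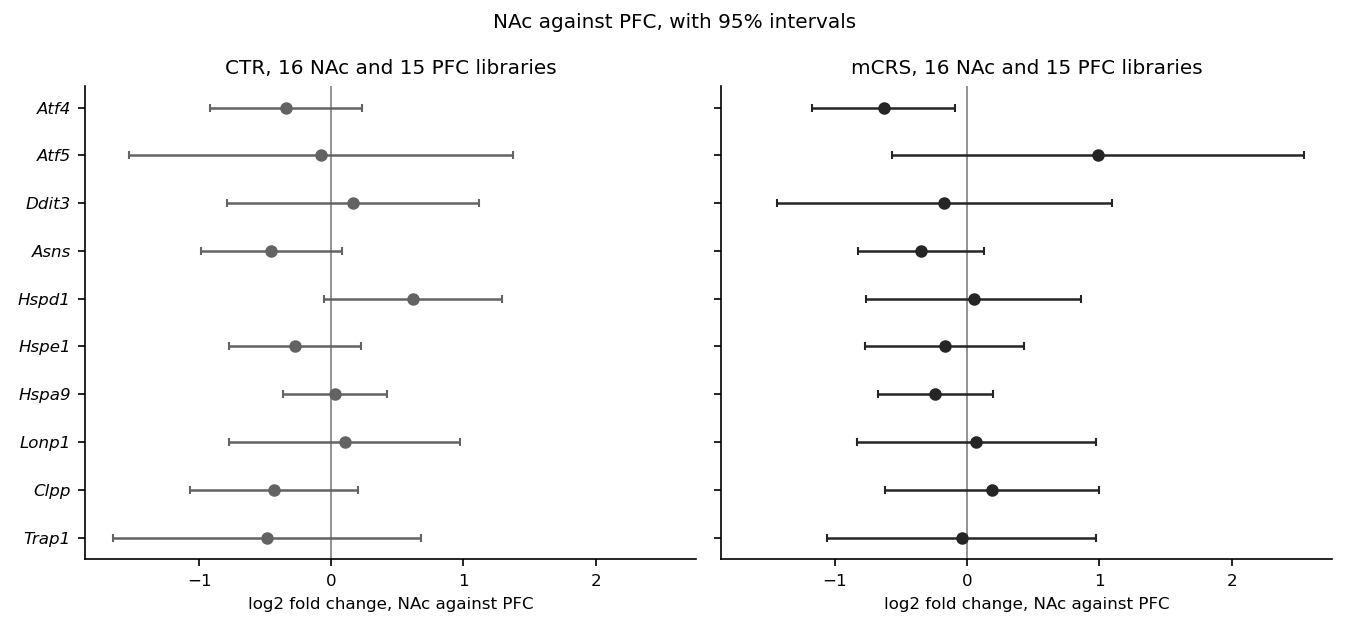
Log2 fold change of NAc against PFC for each gene in CTR (left) and mCRS mice (right), from edgeR, with 95% intervals as bars and a vertical line at no difference. The interval of Atf4 in mCRS, from -1.17 to -0.092, is the single one that leaves out 0, and its FDR was 0.206.

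Oligodendrocyte markers also differed between the regions, with a summed median of 6644 CPM in NAc CTR against 3394 CPM in PFC CTR (5 of 6 markers higher at an FDR below 0.05 in each set of mice, edgeR), and their part in the values of the 10 genes was not tested. Without NAc CTR replicate 7 the counts for CTR remained at 0 and 0. Without NAc mCRS replicate 10, Atf4 in mCRS was at -0.59 with p = 0.0341 before adjustment and an FDR of 0.272 (edgeR).

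When the 4 groups were placed in the order of their mean log2 CPM, each step between neighbours was smaller than the SD of the less variable of the 2 groups, for 10 of 10 genes. For 8 of the 10 even the whole distance from the highest to the lowest group was below the smallest group SD. The exceptions were Atf5, which ran from NAc mCRS down to PFC mCRS over 1.62 log2 units, and Asns, which ran from PFC mCRS over NAc mCRS and PFC CTR down to NAc CTR over 0.86 log2 units.

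How the 10 genes varied together was described over all libraries. Over 45 pairs, Pearson's r of log2 CPM centred on the group means ran from -0.23 to 0.36 with a median of 0.049, and 30 pairs were above 0. The highest was that of Ddit3 and Hspd1. These values are descriptive, since the 62 libraries also share differences in depth. Among 11025 genes, those whose centred levels were most like Atf4 were Gorasp2 (0.50), Vapa (0.47), Il1rapl1 (0.46), with r in parentheses. For Asns they were Sytl2 (0.48), Cyth2 (0.45), Bend6 (0.45). The genes most like Clpp were C1qbp (0.64), Gamt (0.63), Cfdp1 (0.61), of which C1qbp encodes a protein of the mitochondrial matrix, and those most like Lonp1 were Mllt10 (0.65), Wdr11 (0.57), Fbxw5 (0.57). Atf5 was most like Wdr18 (0.53), Tsnax (0.50), Dop1b (0.48), and Ddit3 most like Kcna6 (0.61), Dennd5a (0.58), Tcf20 (0.57). For Hspe1 the list was Dpp7 (0.47), Cstb (0.47), Scaper (0.46), for Hspa9 Fam81a (0.57), Htatsf1 (0.56), Slc39a10 (0.53) and for Trap1 Tmem234 (0.50), Rps9 (0.50), Atg5 (0.48). None of the genes named in these lists was another of the 10. Each list keeps the 3 largest values among 11025 genes, and their size was not tested.

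No gene of the wider pathway passed the FDR in the stress comparisons with edgeR. DESeq2 also called 0 genes of the 4 lists below at an adjusted p below 0.05 in each region, although in the PFC it gave an adjusted p to few of their genes. At an unadjusted p below 0.05 it placed 1 of 32 ATF4 targets, 3 of 17 regulators, 1 of 25 mitochondrial and 0 of 24 endoplasmic reticulum genes in the PFC, against 5.18% of all genes. The NAc counts were 0, 0, 2 and 1 in that order, against 3.53% of all genes. Of 40 listed targets of ATF4, 32 were in the table. Many act in making amino acids, charging transfer RNAs or carrying amino acids into the cell, and others, such as Ddit4 and Vldlr, do not. In the PFC 27 were tested and 0 passed the FDR (edgeR). There, 17 were estimated higher and 10 lower in mCRS, with 1 higher and 0 lower at an unadjusted p below 0.05, and a median of 0.10 on the log2 scale. In the NAc 30 were tested, 0 passed the FDR, 14 were estimated higher and 16 lower, 0 had an unadjusted p below 0.05, and the median was -0.046. The PFC gene below that p was Ddit4, which encodes an inhibitor of mTORC1 signalling that responds to glucocorticoids as well as to ATF4. Its level ranged from 0.546 to 47.5 CPM with a median of 3.17 in PFC CTR, and from 0 to 113 CPM with a median of 44.1 in PFC mCRS. The log2 fold change was 2.02 (SE 0.73, unadjusted p = 0.00771) with an FDR of 0.947 (edgeR). In the NAc it was -0.070 (SE 0.44, unadjusted p = 0.874), and the difference between the regions was 2.08 (SE 0.79, unadjusted p = 0.00965), which did not pass the FDR.

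In the comparisons of regions 1 gene of the 4 related lists passed the FDR with edgeR. The shares over all genes were 6.32% in CTR and 6.31% in mCRS. The gene of the lists was Ddit4, which was higher in the NAc than in the PFC of CTR mice by 2.21 on the log2 scale (SE 0.62, FDR 0.0166, edgeR). In mCRS mice the same comparison gave 0.13 (SE 0.53, unadjusted p = 0.805). DESeq2 placed 1 of 32 ATF4 targets, Ddit4, and 2 of 25 mitochondrial genes, Ppif and Stoml2, below an adjusted p of 0.05 in CTR, and 1 of 25 mitochondrial genes, Ppif, in mCRS. The counts in the other lists were 0, against the 8.09% and 8.12% of all genes given above. The PFC comparison and the comparison of regions in CTR share the PFC CTR libraries. Among the other targets the smallest unadjusted p in the PFC belonged to Eprs and Gars, which encode aminoacyl-tRNA synthetases, at -0.58 (SE 0.34, unadjusted p = 0.0954) and 0.38 (SE 0.32, unadjusted p = 0.249). In the NAc they belonged to the cystine transporter gene Slc7a11, at -0.88 (SE 0.50, unadjusted p = 0.0799), to Psat1 of serine synthesis, at -0.51 (SE 0.36, unadjusted p = 0.158), and to the lipoprotein receptor gene Vldlr, at -0.36 (SE 0.28, unadjusted p = 0.204).

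The eIF2 kinases and other regulators upstream of ATF4 numbered 18, of which 17 were in the table. In the PFC 16 were tested, with 9 estimated higher, 7 lower, 0 past the FDR and 2 lower at an unadjusted p below 0.05. Over all genes that p was reached by 3.5% in the PFC and 2.04% in the NAc (edgeR). The 2 regulators were Oma1, the inner membrane protease that relays mitochondrial stress to the kinase HRI, at -2.11 (SE 1.01, unadjusted p = 0.0406), and Eif2b5, a subunit of the exchange factor of eIF2, at -1.27 (SE 0.63, unadjusted p = 0.0469). Oma1 was at a low level, with a mean log2 CPM of 3.54 (SD 2.54) in PFC CTR and 1.46 (SD 2.03) in PFC mCRS. Ppp1r15b, which directs a phosphatase to eIF2, was at 1.49 (SE 0.77, unadjusted p = 0.0582). In the NAc 16 were tested, with 6 estimated higher, 10 lower, 0 past the FDR and 0 at an unadjusted p below 0.05. The 3 of smallest p there were the eIF2 subunit gene Eif2s1 at 0.90 (SE 0.63, unadjusted p = 0.157), Impact at -0.17 (SE 0.14, unadjusted p = 0.205) and the kinase gene Eif2ak4, which encodes GCN2, at -1.05 (SE 0.97, unadjusted p = 0.282).

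The other 25 mitochondrial chaperones, proteases and their helpers were all tested in both regions. In each region 15 were estimated higher and 10 lower in mCRS, with a median of 0.11 in the PFC and 0.060 in the NAc, and 0 passed the FDR. At an unadjusted p below 0.05 there were 0 in the PFC and 2 in the NAc, against 3.5% and 2.04% of all genes (edgeR). The NAc genes were Stoml2, a scaffold of the inner membrane, at 0.66 (SE 0.32, unadjusted p = 0.0430), and Afg3l2, a subunit of the matrix-facing AAA protease, at -0.76 (SE 0.38, unadjusted p = 0.0463). Clpx, whose product unfolds substrates for ClpP, was at -0.72 (SE 0.53, unadjusted p = 0.184) in the NAc. In the PFC the smallest p belonged to Pmpcb of the mitochondrial processing peptidase, at 0.88 (SE 0.47, unadjusted p = 0.0672), to Dnajc19 of the import motor, at 0.80 (SE 0.51, unadjusted p = 0.121), and to Dnaja3, a partner of mortalin, at 0.76 (SE 0.62, unadjusted p = 0.224).

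Chaperones and sensors of the endoplasmic reticulum, whose stress also feeds into ATF4, were set beside them. Of 25 genes 24 were in the table. In the PFC 21 were tested, 11 were estimated higher and 10 lower, and none passed the FDR (0 at an unadjusted p below 0.05, edgeR). In the NAc 24 were tested, 7 were estimated higher and 17 lower with a median of -0.11, 0 passed the FDR and 1 was lower at an unadjusted p below 0.05. That gene was Sel1l, a subunit of the machinery that removes misfolded proteins from the endoplasmic reticulum, at -0.65 (SE 0.25, unadjusted p = 0.0119). The transcription factor gene Xbp1 was at -0.31 (SE 0.24, unadjusted p = 0.204) and Creld2 at 0.75 (SE 0.66, unadjusted p = 0.260) in the NAc. In the PFC the disulfide isomerase gene P4hb was at 0.50 (SE 0.29, unadjusted p = 0.0903), Atf6b at -0.99 (SE 0.74, unadjusted p = 0.190) and the chaperone gene Canx at 0.17 (SE 0.16, unadjusted p = 0.298). In the test of the difference between the regions 0 genes of the 4 lists passed the FDR (edgeR), and 1 of each list had an unadjusted p below 0.05. The shares over all genes were 0.00907% and 3.09% (edgeR).

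**Figure D5:**
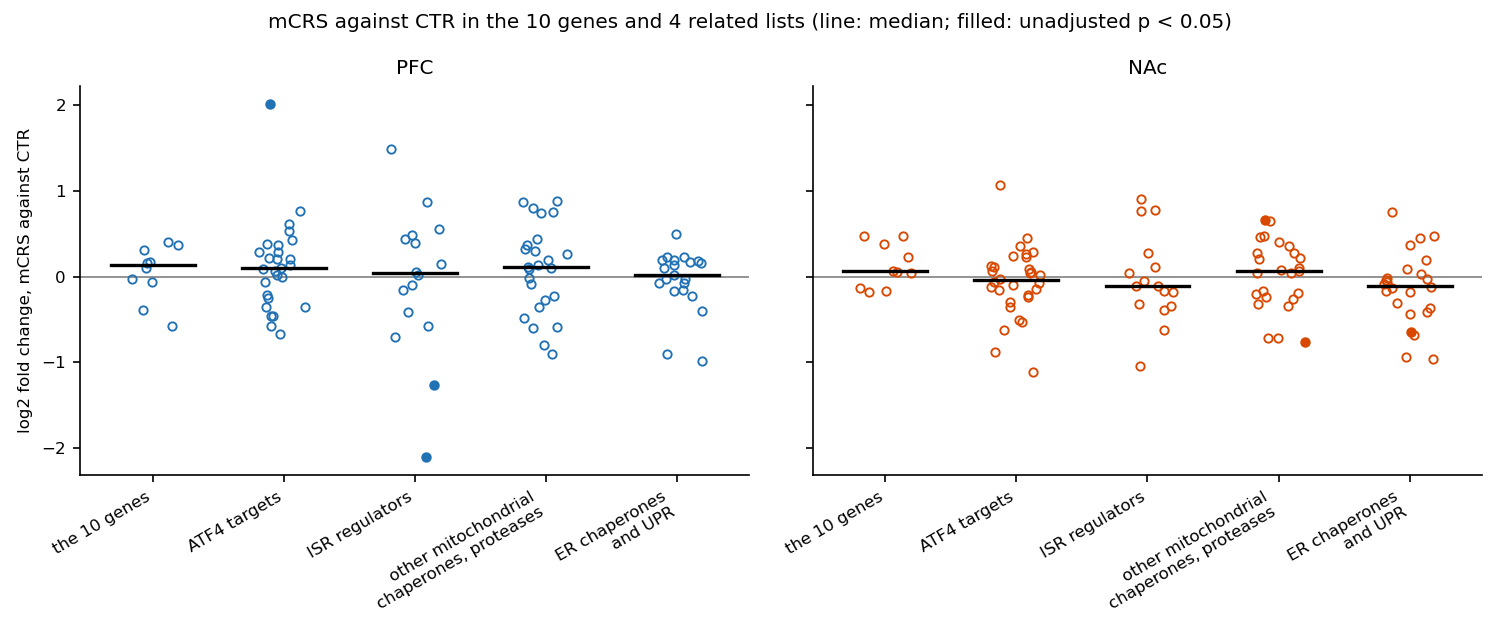
Log2 fold change of mCRS against CTR for the 10 genes and the 4 related lists in the PFC (left) and the NAc (right), from edgeR. Each circle is a gene, filled where the unadjusted p was below 0.05, and black lines mark list medians. The medians lie between -0.11 and 0.13, and Ddit4 is the filled circle at the top of the PFC panel.

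Among cell type markers, those of astrocytes had a summed median of 568 CPM in the stressed PFC against 800.3 CPM in PFC CTR, with ranges of 182 to 741 and 514 to 1061 CPM. Of these 5 markers 0 passed the FDR and 1, Slc1a3, was lower at an unadjusted p below 0.05 (edgeR). In the NAc the astrocyte sum had a median of 690.1 CPM in mCRS and 803 CPM in CTR, with 0 of 5 past the FDR and 1 lower at an unadjusted p below 0.05, again Slc1a3 at -0.35 (SE 0.14, unadjusted p = 0.0171, edgeR). Endothelial markers had summed medians of 186 CPM in NAc mCRS and 290.5 CPM in NAc CTR, with 0 of 5 past the FDR (1 lower at an unadjusted p below 0.05, edgeR). Over all genes that p was reached by 3.5% in the PFC and 2.04% in the NAc (edgeR). Microglial markers lay between 276 and 341 CPM as medians of the 4 groups. The part of these cells in the levels of the 10 genes was not tested.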

How the data were processed

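RNA of PFC and NAc, from 1 hemisphere of each mouse, had been sequenced by BRB-seq, which barcodes samples at reverse transcription, pools them and reads the 3′ end of transcripts. The authors deposited raw counts of uniquely mapped reads per gene, made with STAR and HTSeq on GRCm38/mm10 (HTSeq 0.9.1 in the submitters' processing notes); replicates were not pooled, and 2 PFC samples had been removed for poor sequencing. Copies made by PCR were counted, so floors (3 counts) cover counting error only. Columns were matched to samples by title, and 11120 of 11121 identifiers to a symbol. Gene positions are from GENCODE M21 (GRCm38), and promoter windows from RefSeq (GRCm38.p6).

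Counts were tested with edgeR 4.0.16 (R 4.3.3): filterByExpr by group, TMM, quasi-likelihood F-test, Benjamini-Hochberg over all genes tested, called at an FDR below 0.05. Each stress comparison used the libraries of its region, each comparison of regions those of 1 treatment, and the difference of the effects all 62. Levels are TMM CPM over all libraries, in logs with a prior count of 2. SE are the log2 fold change over the root of F, and 95% intervals use the degrees of freedom of the test. DESeq2 1.42.0, RLE scaling, other filters, covariates, a replicate block and leaving out libraries were alternatives. Correlations used 100000 permutations. The scripts were tested on simulated data. The study had 16 mice a group, and the sources used here do not state which PFC and NAc libraries came from 1 mouse, so libraries were taken as independent, and p-values measure only the spread between them. The 10 genes, the 4 related lists (ATF4 targets, regulators of the integrated stress response, other mitochondrial chaperones and proteases, chaperones and sensors of the endoplasmic reticulum) and the 7 marker lists were chosen with earlier results of these data known. Named beside the 10 were, per list, genes past the FDR and the 3 of smallest p in each stress comparison, and for regions in CTR those past the FDR. Ddit4 in other comparisons, and Ppif, Stoml2 between regions, Hsp90b1, Ttr and Slc1a3, were named after their values were seen, as was the choice of the 2 NAc libraries left out. Also named were the 3 genes whose centred levels were most like each of the 10, and for Hspd1 these are not reported here.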

Additional observations from a re-analysis of the deposited data

How the results depend on the processing

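In each of the 5 comparisons the number of the 10 genes at an FDR below 0.05 stayed at 0 under every alternative that gave an adjusted p, and for DESeq2 in the PFC no member had one. Of the members' fold changes, 1773 values with a library left out and 425 under other alternatives kept their direction, and 87 and 15 changed it. The cause of the changes below was not tested. In the PFC, Atf4 turned to -0.084 with a covariate for the share of genes detected and -0.013 with the log2 total count, and Trap1 to 0.043 and 0.16. Hspa9 in the NAc turned to -0.045 without the 2 NAc libraries that stood apart, an alternative chosen after seeing the data. For NAc against PFC in mCRS, Hspd1, Hspe1 and Lonp1 turned to -0.0062, 0.059 and -0.15 with the genes detected, Lonp1 to -0.094 with the total count, and Trap1 to 0.015 with RLE and 0.014 with DESeq2. The number at an unadjusted p below 0.05 became 1 in the NAc with RLE and with DESeq2 (Asns), 1 for NAc against PFC in CTR with DESeq2 (Hspd1), and 0 in mCRS with the genes detected or the replicate block. Leaving out 1 library gave 0 to 1 in the NAc (1, Asns, without CTR 1, 6, 9 or 16 or mCRS 5, 7, 11 or 15), 0 to 1 for the regions in CTR (1 without PFC 14 or NAc 2, Hspd1, or without NAc 1, Asns) and 0 to 1 in mCRS (0 without PFC 1 or 3).

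Deviations of PFC and NAc libraries with the same number in their titles correlated at -0.015 to 0.025 in CTR and -0.026 to 0.020 in mCRS. These values cannot decide whether such PFC and NAc libraries came from 1 mouse, since 2 tissues of 1 mouse need not vary together. The replicate block, fitted all the same, joined libraries that share a number. In the stress comparisons these came from a control and a stressed mouse, so the block there stands for no known pairing. With it, Ddit3 and Trap1 in the PFC turned to -0.10 and 0.17, and the median of all genes there moved to -0.14. Between regions, Hspa9 in CTR turned to -0.0028 and Hspe1 in mCRS to 0.012. The FDR count of the 10 stayed at 0. Over all genes, those past the FDR in the PFC numbered 0 in the reported fit, 1 with no filter, 1 with the block, 5 with DESeq2 and 5 with all 62 libraries in 1 fit, and at an unadjusted p below 0.05 the 312 became 184 with the genes detected, 576 with DESeq2 and 541 in 1 fit. In the NAc the FDR count was 1, and 0 to 2 elsewhere, and 207 at the unadjusted p became 393 with DESeq2. For NAc against PFC in mCRS, 196 higher and 400 lower genes became 443 and 460 with DESeq2, and in CTR 208 and 420 became 420 and 480. DESeq2 moved the median of all genes in mCRS to 0.12, from 0.031.

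Log2 fold changes that changed sign as libraries were left out in turn ran as follows. In the PFC they were Ddit3 -0.0011 to 0.27, Hspe1 -0.18 to 0.090, Trap1 -0.16 to 0.12. In the NAc they were Atf4 -0.20 to 0.051, Ddit3 -0.30 to 0.024, Hspe1 -0.0047 to 0.14, Hspa9 -0.0070 to 0.12, Lonp1 -0.095 to 0.26, Ddit4 -0.25 to 0.070. For the difference between regions they were Hspe1 -0.27 to 0.0039, Lonp1 -0.18 to 0.20. For NAc against PFC they were Atf5 -0.23 to 0.12, Ddit3 -0.038 to 0.27, Hspa9 -0.037 to 0.087, Lonp1 -0.094 to 0.26 in CTR, and Ddit3 -0.30 to 0.0030, Hspd1 -0.13 to 0.30, Lonp1 -0.096 to 0.16, Trap1 -0.20 to 0.074, Ddit4 -0.050 to 0.27 in mCRS. The correlation of Hspd1 and Hspe1 turned to -0.011 in PFC CTR, 0.028 in NAc CTR and -0.41 in NAc mCRS without the 2 libraries farthest from the Hspd1 median.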

Other observations

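Between the regions, Ppif, which encodes cyclophilin D, the regulator of the mitochondrial permeability pore, had the smallest unadjusted p of the other mitochondrial chaperones and proteases in both sets of mice. It was estimated higher in the NAc than in the PFC, at 1.58 (SE 0.53, FDR 0.0637, edgeR) on the log2 scale in CTR and 1.55 (SE 0.56, FDR 0.1005, edgeR) in mCRS, which did not pass the FDR in either. DESeq2 put it past an adjusted p of 0.05 in both, at 0.00225 and 0.00848, as did edgeR in CTR with the range of replicate numbers as a covariate. Its median was 9.34 CPM in PFC CTR and 51.5 CPM in NAc CTR, and 18.3 and 53.7 CPM in the mCRS groups. Hsp90b1, the endoplasmic reticulum counterpart of Trap1, was estimated lower in the NAc, at -0.35 (SE 0.15, FDR 0.1812, edgeR) in CTR and -0.48 (SE 0.19, FDR 0.1665, edgeR) in mCRS. Both genes were picked after their values were seen, and the 2 sets of mice share no library.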
